A study of Mus musculus with 2 samples.

Results

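The 10 iron and heme handling genes described here were *Cd163*, *Hp*, *Hmox1*, *Fth1*, *Ftl1*, *Tfrc*, *Slc11a1*, *Slc11a2*, *Slc40a1* and *Lcn2*, chosen by symbol from the 32287 features of a scRNA-Seq study of denervated mouse muscle. Each symbol was found once. The study asked how blocking SPP1 (osteopontin) alters the cells of a muscle after nerve injury, and it held 2 libraries, 1 from muscles injected with a control IgG and 1 from muscles injected with an SPP1-neutralizing antibody (SPP1-nAb). Both came from male mice, 10 to 16 weeks old, given as *S100GFP*-tg in the methods and as strain C57BL/6J in the labels, whose EGFP is driven by the *S100b* promoter. In both, the peroneal nerve was crushed near its entry into the tibialis anterior (TA). In the SPP1-nAb group, 2 μg of antibody in 10 μL was injected into the TA at injury and every 2 days after it, the IgG group was given goat anti-mouse IgG at the same dose and times, and tissue was taken at 7 days post injury (7 dpi). The cells of several mice were pooled into each library, the deposited protocol names gastrocnemius beside TA, and it describes live GFP+ and GFP- cells although the titles say GFP-positive. With 1 library per condition no test between conditions was possible, so a difference below is a difference between 2 libraries, and every interval covers counting error only.

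Iron is useful and toxic to a cell, and so its uptake, storage and release are kept in balance. Macrophages are the main recyclers of iron in the body. They take up hemoglobin bound to haptoglobin (the product of *Hp*) through the receptor CD163, free the iron from heme with heme oxygenase 1 (*Hmox1*), store it in ferritin (the heavy chain *Fth1* and the light chain *Ftl1*) and send it out through ferroportin (*Slc40a1*). Other cells bring in transferrin-bound iron with the transferrin receptor (*Tfrc*) and move it out of endosomes with DMT1 (*Slc11a2*), while NRAMP1 (*Slc11a1*) moves metal out of the phagosome and lipocalin 2 (*Lcn2*) binds the iron carriers of bacteria. *Hmox1* is also a known target of NFE2L2 (NRF2), repressed by BACH1.

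Ferritin, ferroportin and the transferrin receptor are known to be controlled after transcription by iron-responsive elements (IREs), short hairpins of the messenger RNA that iron regulatory proteins bind. Since scRNA-Seq counts messenger RNA, which for ferritin and ferroportin is not the level that IREs are known to set most directly, the hairpins are shown as matches to 1 strict pattern and not as a full account of the members that carry IREs. *Slc11a2*, for example, has transcripts known to carry an IRE in the 3′ UTR, and it had no match. A search of reference transcripts (GRCm39, GENCODE M39) for C, 5 bases, CAGTG, a base other than G and 5 bases pairing with the earlier 5 (G with T allowed) found such a run in the UTRs of 4 of the 10 members. Capitals mark the 6 bases of the loop. In the 5′ UTR, all in exon 1, the matches were in *Fth1* at chr19:9960096-9960124 on the plus strand, in *Ftl1* at chr7:45109203-45109231 on the minus strand, and in *Slc40a1* at chr1:45964625-45964653 on the minus strand.
Fth1: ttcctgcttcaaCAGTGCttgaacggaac
Ftl1: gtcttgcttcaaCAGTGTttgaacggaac
Slc40a1: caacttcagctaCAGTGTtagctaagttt
The 3′ UTR of *Tfrc*, in exon 19 on the plus strand, held 4 matches at chr16:32450037-32450065, chr16:32450416-32450444, chr16:32450481-32450509 and chr16:32450528-32450556, in that order.
Tfrc 1: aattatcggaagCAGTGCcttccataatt
Tfrc 2: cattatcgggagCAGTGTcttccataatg
Tfrc 3: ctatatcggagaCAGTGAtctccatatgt
Tfrc 4: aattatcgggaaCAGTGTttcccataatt
Of 21593 genes searched, 19 (0.088%) had a match in the 5′ UTR and 93 (0.431%) in the 3′ UTR. A match is a run of letters and not a shown site.

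After barcodes with 200 genes or fewer, or 10% mitochondrial UMIs or more, were left out, 23385 IgG and 24758 SPP1-nAb barcodes remained, with 97022487 and 127244621 UMIs and a median of 3822 and 4756 UMIs per barcode. Cells were put into classes by counting marker genes, none of which was a member, and 18 classes with at least 50 cells in each library were used. Barcodes that passed 2 lineages (836 in IgG and 642 in SPP1-nAb) were left out of the classes as possible doublets, since no doublet caller was run. Values over all kept cells still include them and the barcodes in no class. A total of 163 barcodes were found in both libraries. Mononuclear phagocyte-like cells, split further below, made up 53.0% of kept IgG cells (12393) and 64.4% of kept SPP1-nAb cells (15945). Levels are counts per 1000000 UMIs of the class (CPM).

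Across all kept cells, *Hmox1* and *Lcn2* were more than 1.5-fold higher in the SPP1-nAb library and *Cd163* was more than 1.5-fold lower, which is 3 of the 10 members, while 19.6% of the 15490 genes with at least 100 UMIs were past 1.5-fold in either direction, 2.78% higher and 16.8% lower. The members past 1.5-fold numbered 5 with the mean of per-cell CPM and 6 with ratios centred on the median of all genes. In mononuclear phagocyte-like cells the same 3 genes were past 1.5-fold in the same directions, beside 11.4% of 12657 genes, 2.72% higher and 8.68% lower. *Lcn2* reached 100 UMIs there through the SPP1-nAb library (26 and 156 UMIs), and 1 cell held 45 of the 156. *Hmox1* stood at 267 CPM in the IgG library and at 496 CPM in the SPP1-nAb library, and *Cd163* was 212 and 105 CPM. The ferritin chains were 1.22-fold (*Fth1*, 9563 and 11634 CPM) and 1.21-fold (*Ftl1*, 6542 and 7898 CPM) higher. The transporters, the transferrin receptor and *Hp* lay within 1.5-fold. The median log2 ratio of all genes was −0.04 in these cells and −0.11 in all kept cells.

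**Figure D1:**
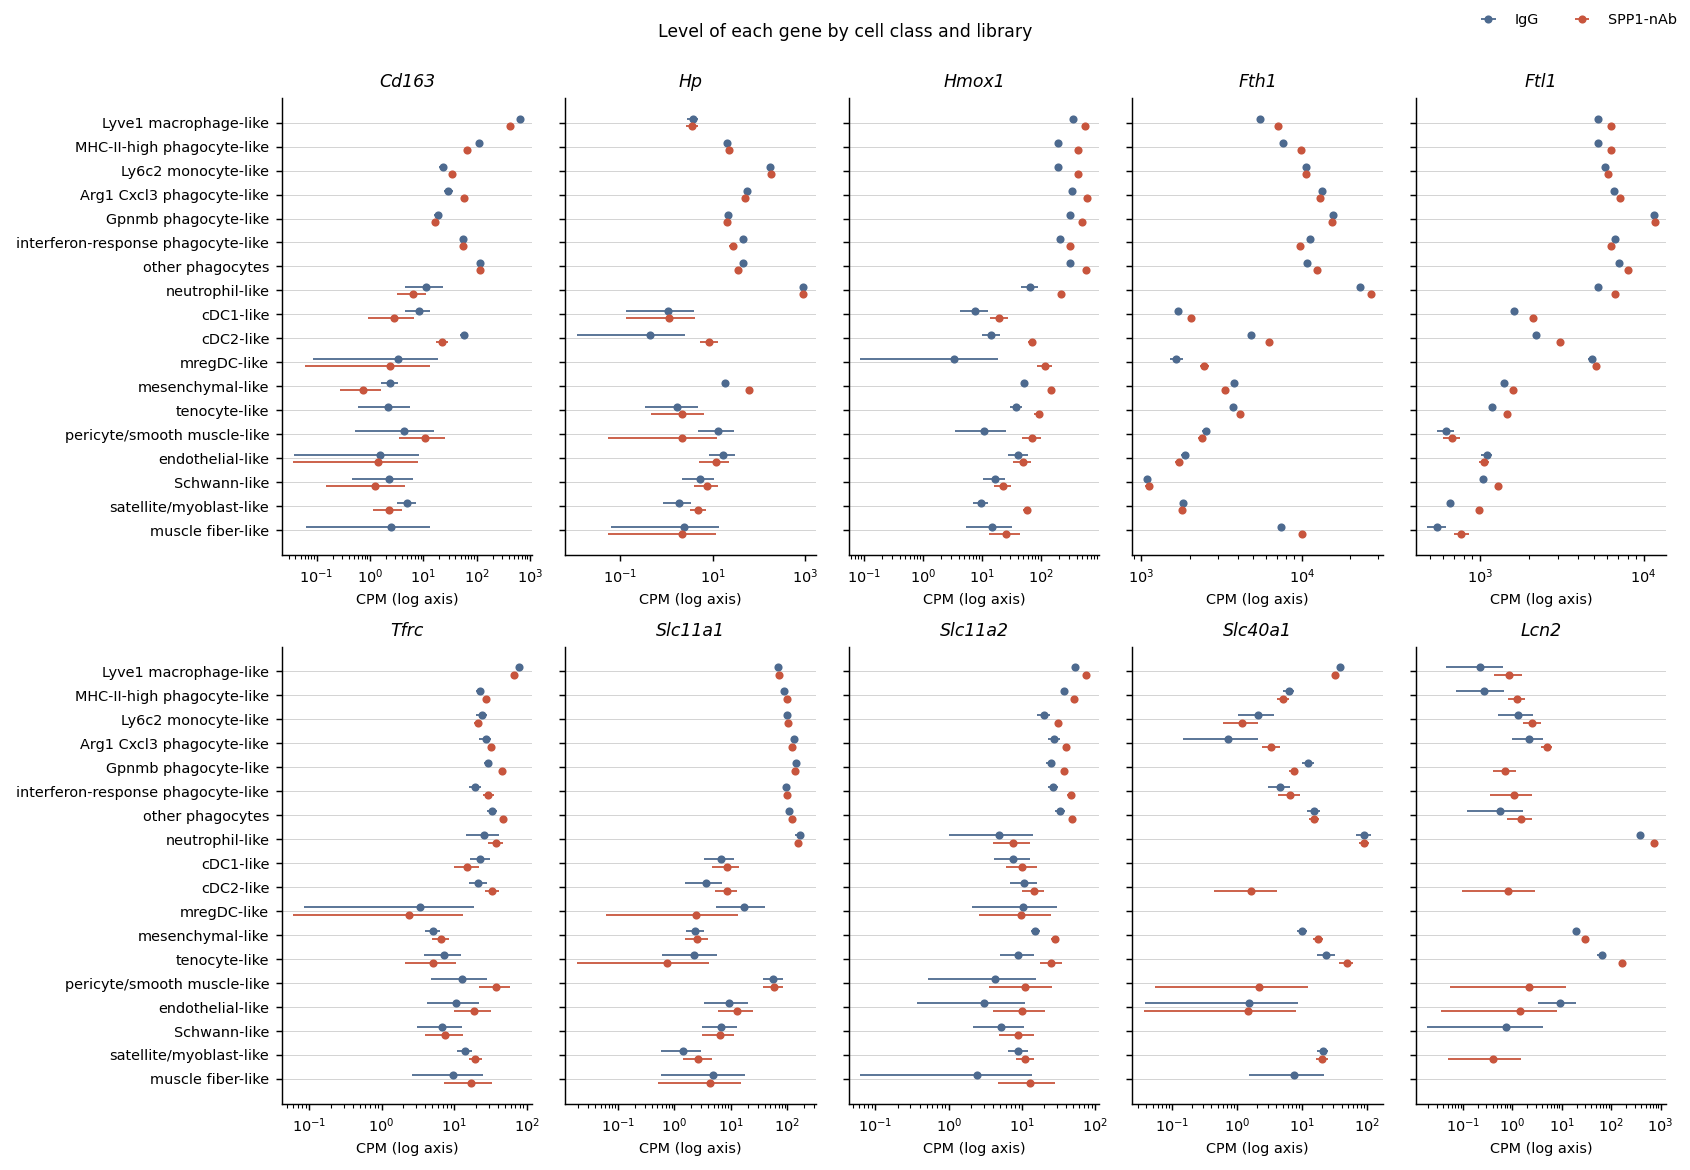
Level of each of the 10 genes (one panel per gene) in each of 18 cell classes, as CPM on a log axis, with IgG and SPP1-nAb as separate points and exact 95% Poisson intervals. A class with 0 UMIs has no point. *Hp*, *Lcn2* and *Fth1* are highest in neutrophil-like cells in both libraries, *Cd163* is highest in Lyve1 resident macrophage-like cells, and the *Hmox1* points of the SPP1-nAb library lie to the right of the IgG points in every class.

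The class with the highest level was the same in both libraries for 9 of the 10 members. It was the neutrophil-like class for *Hp*, *Lcn2*, *Fth1*, *Slc11a1* and *Slc40a1*, the Lyve1 resident macrophage-like class for *Cd163*, *Tfrc* and *Slc11a2*, and the Gpnmb lipid-handling phagocyte-like class for *Ftl1*. *Hmox1* was the exception. Its highest class was Lyve1 resident macrophage-like in the IgG library, with Arg1 Cxcl3 cells within its counting error, and Arg1 Cxcl3 inflammatory phagocyte-like in the SPP1-nAb library. In 4 of the other settings tried it was the Arg1 Cxcl3 class in both libraries. With the gate on cells thinned to 2000 UMIs, where the neutrophil-like class was too small to be used, the highest class became Gpnmb for *Fth1* and *Slc11a1*, Ly6c2 for *Hp*, tenocyte-like for *Lcn2*, and Lyve1 in IgG but tenocyte-like in SPP1-nAb for *Slc40a1*. Neutrophil-like cells were shallow, with a median of 1252 UMIs in 434 IgG cells and 1391 UMIs in 1020 SPP1-nAb cells.

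*Cd163*, the hemoglobin and haptoglobin receptor, was a gene of Lyve1 resident macrophage-like cells, which held 67.9% of its UMIs in the IgG library and 54.2% in the SPP1-nAb library. In that class it was 667 CPM (8866 UMIs) and 432 CPM (5488 UMIs), a log2 ratio of SPP1-nAb over IgG of −0.63 (95% interval −0.68 to −0.58). The class needed 5 of 8 markers, and many cells lay at this limit, 1605 of 3058 in IgG and 1684 of 2350 in SPP1-nAb. The 8 markers summed to 13046 CPM in the IgG class and 10465 CPM in the SPP1-nAb class, so the markers were lower in the same direction, and their part in the *Cd163* difference was not tested. The log2 ratio was −0.45 with 1 marker more required and −0.52 with the gate set on cells thinned to 2000 UMIs, both under 1.5-fold. Thinned to 2000 UMIs per cell, 49.4% of IgG cells (2939 cells, 119 shallower ones left out) and 36.8% of SPP1-nAb cells (2309 cells, 41 left out) had a *Cd163* UMI, against 58.5% and 48.0% before thinning. In Schwann-like cells, which should lack it, the thinned shares were 0.576% and 0.505%.

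The direction of *Cd163* was not the same in every phagocyte class. MHC-II-high phagocyte-like cells had 111 and 66.8 CPM (log2 ratio −0.74), and cDC2-like cells, a dendritic cell class, had 57.5 and 22.5 CPM (−1.35). Arg1 Cxcl3 inflammatory phagocyte-like cells had less in the IgG library, 29.7 against 57.8 CPM (0.96, interval 0.68 to 1.25, and 1.27 without the top cell of each library, since 1 IgG cell held 28 of the 123 UMIs), as had Ly6c2 monocyte-like cells, 23.3 against 34.1 CPM (0.55). In interferon-response phagocyte-like cells the levels were 56.4 and 56.3 CPM, and in the other phagocytes, those outside every named phagocyte class (led by *Ppbp*, *Arg1*, *Spp1* and *Cxcl3*, the second and the last of which are markers of the Arg1 Cxcl3 class), 114 and 116 CPM. Over all phagocytes *Cd163* was lower, as in the Lyve1 and MHC-II-high classes, and Lyve1 cells numbered 3058 in IgG against 2350 in SPP1-nAb. Over all the classes used, not phagocytes alone, the log2 ratio was −0.77. With the SPP1-nAb levels weighted by the class UMIs of the IgG library, this ratio was −0.54. In mononuclear phagocyte-like cells the log2 ratio was −1.01, and the part of class sizes in it was not tested.

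*Hp*, which encodes the plasma protein that captures free hemoglobin, was highest in neutrophil-like cells and next in Ly6c2 monocyte-like cells. These classes held 15.2% and 25.2% of its UMIs in the IgG library. The level of *Hp* was 889 CPM (553 UMIs) in IgG and 892 CPM (1523 UMIs) in SPP1-nAb neutrophil-like cells. In Ly6c2 monocyte-like cells it was 171 and 182 CPM, so in both classes the libraries lay within each other's counting error. It stood at 3.69 and 3.62 CPM in Lyve1 resident macrophage-like cells, the class where its receptor gene was highest. Interferon-response phagocyte-like cells had 44.2 CPM in the IgG library and 27.5 CPM in the other (−0.69, and −0.47 with 1 marker more required, which is under 1.5-fold).

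The largest difference in *Hp* among classes with at least 100 UMIs was in mesenchymal-like cells, the fibroblast class, with 18.0 CPM (238 UMIs) in IgG and 60.1 CPM (478 UMIs) in SPP1-nAb, a log2 ratio of 1.74 (1.51 to 1.97). A few cells carried much of it, since 6 SPP1-nAb cells held 50% or more of the 478 UMIs and 1 cell held 63. Leaving out the top cell of each library gave 1.69. At 2000 UMIs per cell, 1.73% of IgG and 4.40% of SPP1-nAb mesenchymal-like cells had an *Hp* UMI (3.56% and 12.4% before thinning), and the share in Schwann-like cells was 0.288% and 0.758%. The neutrophil markers, 8 in all, summed to 485 CPM over all kept IgG cells and 1075 CPM over all kept SPP1-nAb cells, and the part of RNA from neutrophils in the *Hp* difference was not tested beyond the free-RNA estimate, which left 2.02.

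*Hmox1*, the enzyme that opens the heme ring and frees its iron, was higher in the SPP1-nAb library in each of the 17 classes where it had at least 20 UMIs. The interval lay above 0 in 15 of them and the difference was past 1.5-fold in 14. These 14 were counted at 20 UMIs, and some had fewer than the 100 UMIs needed for a call. Those under 100 UMIs were mregDC-like (1 and 48 UMIs), pericyte or smooth muscle-like (5 and 32) and cDC1-like cells (14 and 35). Of the 3033 genes with at least 20 UMIs in all 17 classes, 41 (1.35%) were higher in every class. Several of these classes say little of their own cells, since the mregDC-like and pericyte-like levels rest on 1 cell, and the Schwann-like, endothelial-like and satellite cell or myoblast-like levels did not exceed what free RNA would give, as described below. In the 9 classes where the level was over 2 times that of free RNA in both libraries, the log2 ratio ran from 0.56 in interferon-response phagocyte-like to 1.76 in neutrophil-like cells. In mononuclear phagocyte-like cells the log2 ratio was 0.89 (0.86 to 0.92), above that of 99.1% of genes.

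**Figure D2:**
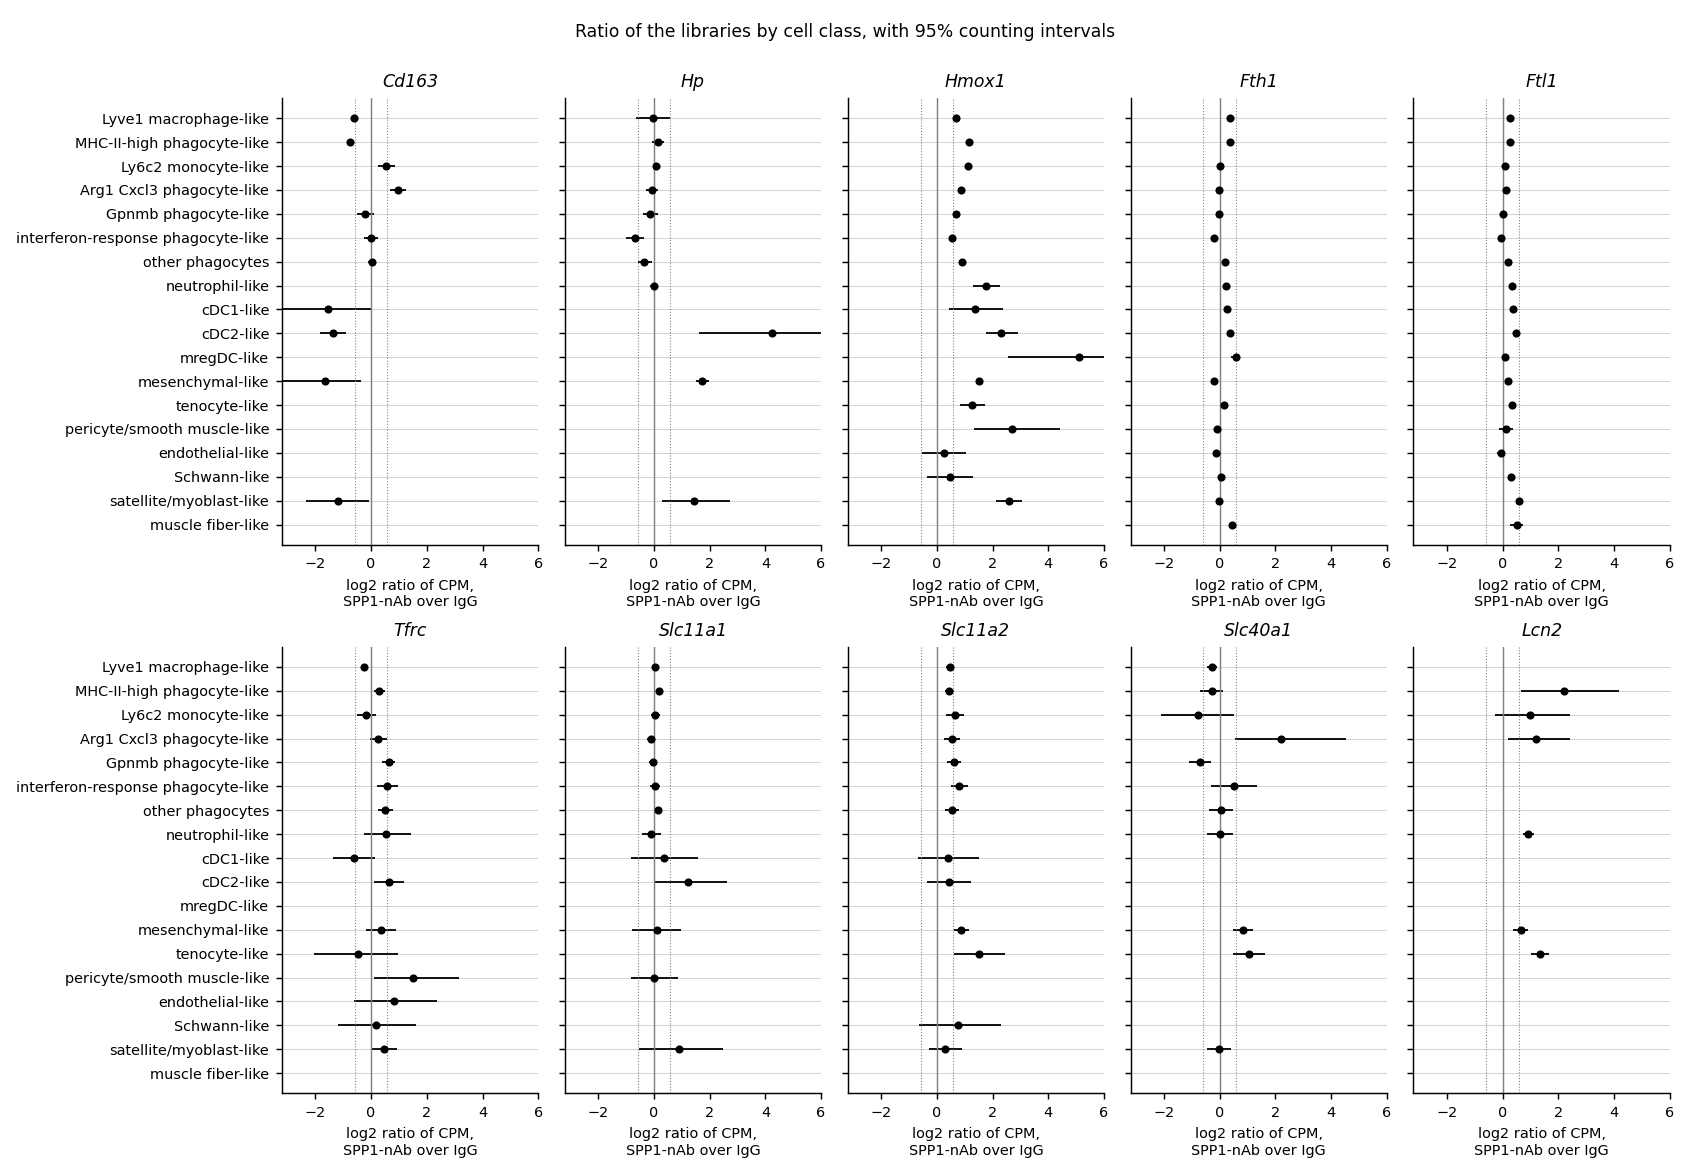
Log2 ratio of CPM, SPP1-nAb over IgG, of each of the 10 genes in each class where it had at least 20 UMIs, with exact 95% intervals that are cut at the panel edges. The line at 0 is equal level and the dotted lines are 1.5-fold. *Hmox1* and *Slc11a2* lie right of 0 in every class drawn, 17 and 13 classes, and *Fth1* and *Ftl1* lie within 1.5-fold in all 18.

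Within the phagocytes, *Hmox1* in the IgG library was 344 CPM in Lyve1, 337 CPM in Arg1 Cxcl3, 311 CPM in Gpnmb and 305 CPM in other phagocytes, neighbours whose intervals overlapped in this order, and it was lower in the interferon-response (213 CPM), Ly6c2 (197 CPM) and MHC-II-high (192 CPM) classes. The SPP1-nAb library had 610 CPM in Arg1 Cxcl3, 569 CPM in other phagocytes, 555 CPM in Lyve1, 502 CPM in Gpnmb, 431 CPM in Ly6c2, 429 CPM in MHC-II-high and 314 CPM in interferon-response cells. The levels of all 7 classes were thus higher, with the interferon-response class last in SPP1-nAb but above the Ly6c2 and MHC-II-high classes in IgG. The ratio was largest in MHC-II-high (1.16, interval 1.09 to 1.22) and Ly6c2 cells (1.13, 1.03 to 1.23) and smallest in interferon-response cells (0.56, 0.45 to 0.67), the only one of the 7 under 1.5-fold. Lyve1 cells were at 0.69, and under 1.5-fold with 1 marker more required (0.45) or with the gate on thinned cells (0.54).

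More cells held the transcript, and more of it. At 2000 UMIs per cell, 29.8% of IgG phagocytes (11737 cells) and 47.1% of SPP1-nAb phagocytes (15434 cells) had an *Hmox1* UMI, and 4.29% and 11.3% had 3 or more. Without thinning the shares were 46.3% and 69.2%. Thinned shares were also taken in 2 classes whose level did not exceed the free-RNA estimate given below. They were close between the libraries in Schwann-like cells, 4.32% and 4.29%, but not in satellite cell or myoblast-like cells, 1.75% and 9.89%. No single cell set the phagocyte sum, since the richest cell held 116 of 14897 UMIs in IgG and 156 of 44609 in SPP1-nAb.

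Outside the phagocytes, neutrophil-like cells had 64.3 CPM (40 UMIs) and 219 CPM (373 UMIs), a log2 ratio of 1.76 (1.29 to 2.27), and mesenchymal-like cells had 51.4 CPM (679 UMIs) and 148 CPM (1176 UMIs), a ratio of 1.52 (1.39 to 1.66). In the neutrophil-like class 1 IgG cell held 15 of the 40 UMIs, and without the top cell of each library the levels were 40.3 and 201 CPM (2.32). At 2000 UMIs, 8.30% and 19.8% of mesenchymal-like cells had a UMI. Tenocyte-like cells had 37.6 and 90.7 CPM (1.27) and cDC2-like cells 14.4 and 71.2 CPM (2.31). Neither of these 2 classes was over 2 times the free-RNA estimate given below in both libraries, and the part of free RNA was not tested. The cDC2-like ratio had no value with 1 marker more required or with the gate on thinned cells. In mregDC-like and pericyte-like cells 1 cell held most of the SPP1-nAb UMIs, 40 of 48 and 23 of 32, so these levels rest on single cells.

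The amount of *Hmox1* RNA expected from RNA free in the droplets differed between the libraries. The share of this free RNA was estimated from the markers of other lineages found in a class. Its profile was taken to be that of all kept cells of the library and was not measured in empty droplets. Phagocytes held 85.0% and 87.9% of the *Hmox1* UMIs of that profile, so the estimate rises with the level in phagocytes. Free RNA would give 8.20 CPM in phagocytes of the IgG library and 30.7 CPM in those of the SPP1-nAb library, a small part of 267 and 496 CPM. The level was over 2 times the estimate in both libraries in 9 classes, namely the 7 phagocyte classes, neutrophil-like and mesenchymal-like cells. It was at or under the estimate in both in 4 classes, Schwann-like, endothelial-like, muscle fiber-like and satellite cell or myoblast-like cells. In the last of these, IgG cells had 9.50 CPM where free RNA would give 28.8 CPM. SPP1-nAb cells had 56.7 CPM where it would give 58.9 CPM. The IgG estimate thus lay well above the measured level. Background and own expression could not be told apart by it in satellite cell or myoblast-like cells, and their parts in the log2 ratio of 2.58 were not tested.

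**Figure D3:**
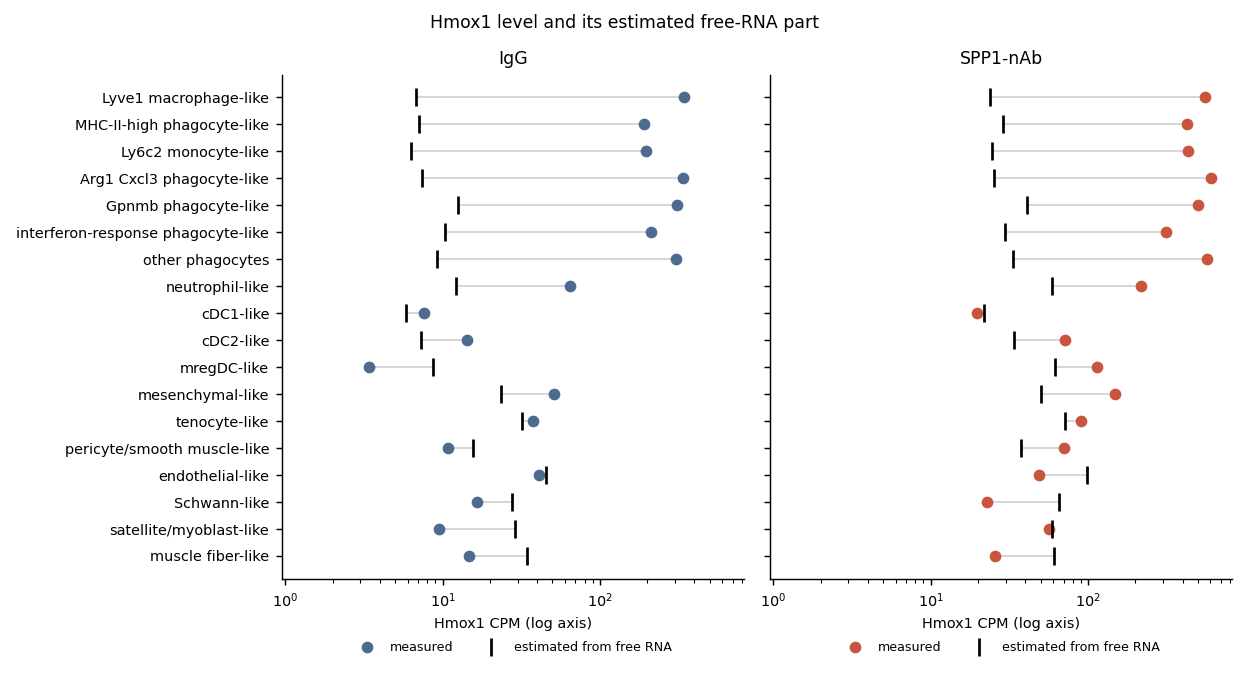
*Hmox1* level (dots, CPM on a log axis) and the level that free RNA would give (black bars) in each of 18 classes, IgG at left and SPP1-nAb at right. The 7 phagocyte classes lie far right of their bars in both libraries, while Schwann-like, endothelial-like, muscle fiber-like and satellite cell or myoblast-like dots lie at or left of theirs.

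The SPP1-nAb library held a larger share of phagocytes. With SPP1-nAb levels weighted by the UMIs of each class in IgG, the log2 ratio of *Hmox1* over the classes was 0.91, against 1.12 with each library's own class UMIs. Erythroid markers, 6 genes of which the globins lead, summed to 226 CPM over all kept IgG cells and 96.3 CPM over all kept SPP1-nAb cells, and to 22.4 and 15.1 CPM in mononuclear phagocyte-like cells. They were therefore lower in the library where *Hmox1* was higher. Their part in the difference was not tested.

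*Fth1* and *Ftl1*, the chains of the iron-storing ferritin shell, made up 1.61% of the UMIs of IgG phagocytes and 1.95% of those of SPP1-nAb phagocytes. Neither was past 1.5-fold in any of the 18 classes, but in cycling phagocytes, which were counted across the phagocyte classes, *Fth1* was 4180 and 6641 CPM, 1.59-fold higher. *Fth1* was highest in neutrophil-like cells, 23146 and 26984 CPM, followed by Gpnmb lipid-handling cells with 15630 and 15536 CPM and Arg1 Cxcl3 cells with 13388 and 13084 CPM. It was lowest in Schwann-like cells, 1088 and 1109 CPM, at or under the free-RNA estimate. *Ftl1* was highest in Gpnmb lipid-handling cells, 11567 and 11663 CPM, where ferritin took 2.72% of all UMIs in both libraries.

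Over all kept cells the log2 ratio was 0.44 for *Fth1* and 0.48 for *Ftl1*. Gpnmb lipid-handling cells, rich in ferritin, numbered 1159 in IgG and 3060 in SPP1-nAb, and they held 15.8% and 27.3% of all *Fth1* UMIs. Over the classes used, the log2 ratios of *Fth1* and *Ftl1* were 0.43 and 0.46 with each library's own class UMIs. With the classes weighted by their UMIs in the IgG library they were 0.12 and 0.16. The part of class sizes in the ferritin difference was not tested. Among the phagocyte classes the levels differed most in Lyve1 (*Fth1* 5487 and 7132 CPM, 0.38) and MHC-II-high cells (7694 and 9915 CPM, 0.37), while Ly6c2 cells had 10648 and 10685 CPM. Interferon-response cells had a lower *Fth1* level in SPP1-nAb, 11307 against 9792 CPM (−0.21).

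The balance of the chains varied far more between classes than between libraries. There were 1.46 *Fth1* UMIs per *Ftl1* UMI in IgG phagocytes and 1.47 in SPP1-nAb phagocytes. The ratio was 1.04 and 1.12 in Lyve1 cells, 4.40 and 4.04 in neutrophil-like cells, and 13.5 and 12.9 in muscle fiber-like cells, where *Ftl1* did not exceed its free-RNA estimate. mregDC-like cells, mature dendritic cells, had more *Ftl1* than *Fth1* UMIs, with ratios of 0.341 and 0.483. Satellite cell or myoblast-like cells had 2.75 in IgG and 1.81 in SPP1-nAb, and mesenchymal-like cells 2.70 and 2.07. In neither class was *Ftl1* over 2 times its free-RNA estimate in both libraries, and in the satellite class *Fth1* was not either. The part of free RNA in these ratios was not tested. Reads of near-identical copies could be split between rows of the table. *Ftl1-ps1*, a copy of *Ftl1*, had 2856 UMIs in IgG and 5925 in SPP1-nAb, against 443677 and 811183 of *Ftl1*.

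*Tfrc*, the receptor for transferrin-bound iron, was highest in Lyve1 resident macrophage-like cells, 78.6 CPM (1044 UMIs) and 66.6 CPM (846 UMIs), a log2 ratio of −0.24 (−0.37 to −0.11). In Gpnmb lipid-handling cells it was lower in IgG, 29.2 against 45.0 CPM (0.63, 0.41 to 0.85), and in interferon-response cells 19.6 against 29.5 CPM (0.59). With the gate on thinned cells these ratios were 0.43 and 0.32, under 1.5-fold. Without the top cell of each library, the ratio was 0.29 (−0.02 to 0.61) in Arg1 Cxcl3, 0.29 in MHC-II-high and 0.50 in other phagocytes. It was −0.16 (−0.48 to 0.17) in Ly6c2 cells. Over all phagocytes the levels were 37.9 and 39.3 CPM, with Lyve1 cells 3058 of 12393 cells in IgG and 2350 of 15945 in SPP1-nAb. *Tfrc* is often high in dividing cells, and cycling phagocytes, a small class of 142 IgG and 196 SPP1-nAb cells, had 32.1 and 40.9 CPM, below the level in Lyve1 cells.

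*Slc11a1*, the phagosomal metal transporter, was spread over the phagocyte classes. It was 166 and 156 CPM in neutrophil-like, 140 and 135 CPM in Gpnmb and 129 and 120 CPM in Arg1 Cxcl3 cells. The intervals of the neutrophil-like and Gpnmb classes overlapped. Without the top cell of each library, other phagocytes had 108 and 119 CPM, Ly6c2 cells 98.9 and 103 CPM and Lyve1 cells 67.4 and 69.8 CPM. In none of the classes with at least 100 *Slc11a1* UMIs was the gene past 1.5-fold. Its log2 ratio over phagocytes was 0.18, and it was at or under the free-RNA estimate in 6 classes outside the immune cells. Pericyte or smooth muscle-like cells were apart from these, with 56.4 CPM (26 UMIs) and 56.9 CPM (26 UMIs).

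*Slc11a2*, the endosomal iron transporter DMT1, was higher in the SPP1-nAb library in all 13 classes where it had at least 20 UMIs, beside 173 (2.58%) of 6698 genes with as many UMIs in those classes. The interval lay above 0 in 9 of the 13, and the level was over 2 times that of free RNA in both libraries in 10 of the 18 classes. It was 53.6 and 74.4 CPM in Lyve1 cells (0.47, 0.33 to 0.61) and 26.8 and 46.8 CPM in interferon-response cells (0.80, 0.50 to 1.11). Mesenchymal-like cells had 15.2 and 28.0 CPM (0.88). In phagocytes as a whole, 6.84% of IgG and 9.06% of SPP1-nAb cells thinned to 2000 UMIs had a UMI (13.9% and 21.4% before thinning), against 0.288% and 1.77% of Schwann-like cells.

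*Slc40a1*, the iron exporter ferroportin, was a low gene here. It was highest in neutrophil-like cells, 88.4 CPM (55 UMIs) and 88.5 CPM (151 UMIs), and next in Lyve1 cells of the IgG library, 38.2 CPM against 31.7 CPM in SPP1-nAb (−0.27, −0.46 to −0.08). Phagocytes as a whole had 14.4 and 9.80 CPM (−0.56, −0.70 to −0.42), and Gpnmb cells 12.2 and 7.41 CPM (−0.72, but −0.34 with the gate on thinned cells and −0.48 without the 10% of barcodes with the most UMIs). The interval crossed 0 in other phagocytes (0.03, −0.38 to 0.46) and in MHC-II-high cells (−0.29, −0.71 to 0.13). Arg1 Cxcl3 cells had 0.725 CPM (3 UMIs) and 3.32 CPM (39 UMIs), a ratio of 2.20 (0.54 to 4.54). Interferon-response cells had 4.47 and 6.38 CPM (0.51, −0.30 to 1.33). The Arg1 Cxcl3 and interferon-response classes each had fewer than the 100 UMIs needed for a call. Without its top cell, the IgG Arg1 Cxcl3 class had 1 UMI. These classes therefore cannot show that the level was higher in any phagocyte class. The level was higher in SPP1-nAb in mesenchymal-like cells, 9.85 and 17.6 CPM (0.84), and in tenocyte-like cells, 23.2 and 47.9 CPM (1.04). Over the classes the log2 ratio was −0.21 when weighted by each library's own class UMIs and 0.04 by those of IgG. Satellite cell or myoblast-like cells had 20.6 and 20.3 CPM. Schwann-like cells had a UMI in 0 of 347 and 0 of 396 thinned cells, where 3 cells would be 0.865% and 0.758%.

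*Lcn2*, which encodes a secreted binder of bacterial iron carriers stored in neutrophil granules, was concentrated in few classes. Neutrophil-like cells had 384 CPM (239 UMIs) in IgG and 726 CPM (1239 UMIs) in SPP1-nAb, a log2 ratio of 0.92 (0.72 to 1.12). Few cells carried these sums. The share of cells with a UMI was 18.7% and 20.6%, 8 IgG and 5 SPP1-nAb cells held 50% or more of the UMIs, and 1 SPP1-nAb cell held 246. Without the top cell of each library the levels were 262 and 585 CPM (1.16), while the mean of per-cell CPM gave a ratio of 0.30 and 1 marker more in the gate gave 0.41, both under 1.5-fold.

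Tenocyte-like cells, the tendon fibroblast class, were next for *Lcn2*, with 64.2 CPM (116 UMIs) and 163 CPM (221 UMIs), a ratio of 1.34 (1.01 to 1.68). At 2000 UMIs, 10.2% and 17.7% of them had a UMI, against 0.288% and 0% of Schwann-like cells. In the last of these, 3 cells would be 0.758%. Mesenchymal-like cells had 19.1 and 29.9 CPM (0.65, but 0.56 without the top cell of each library and 0.25 without the 10% of barcodes with the most UMIs, under 1.5-fold). In mononuclear phagocyte-like cells *Lcn2* was near absent, 0.467 CPM (26 UMIs) and 1.74 CPM (156 UMIs), and 1 cycling cell held 45 of the 156. The neutrophil markers in these phagocytes summed to 114 CPM in the IgG library and to 165 CPM in the SPP1-nAb library. Their part in the *Lcn2* ratio of 1.89 was not tested.

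**Figure D4:**
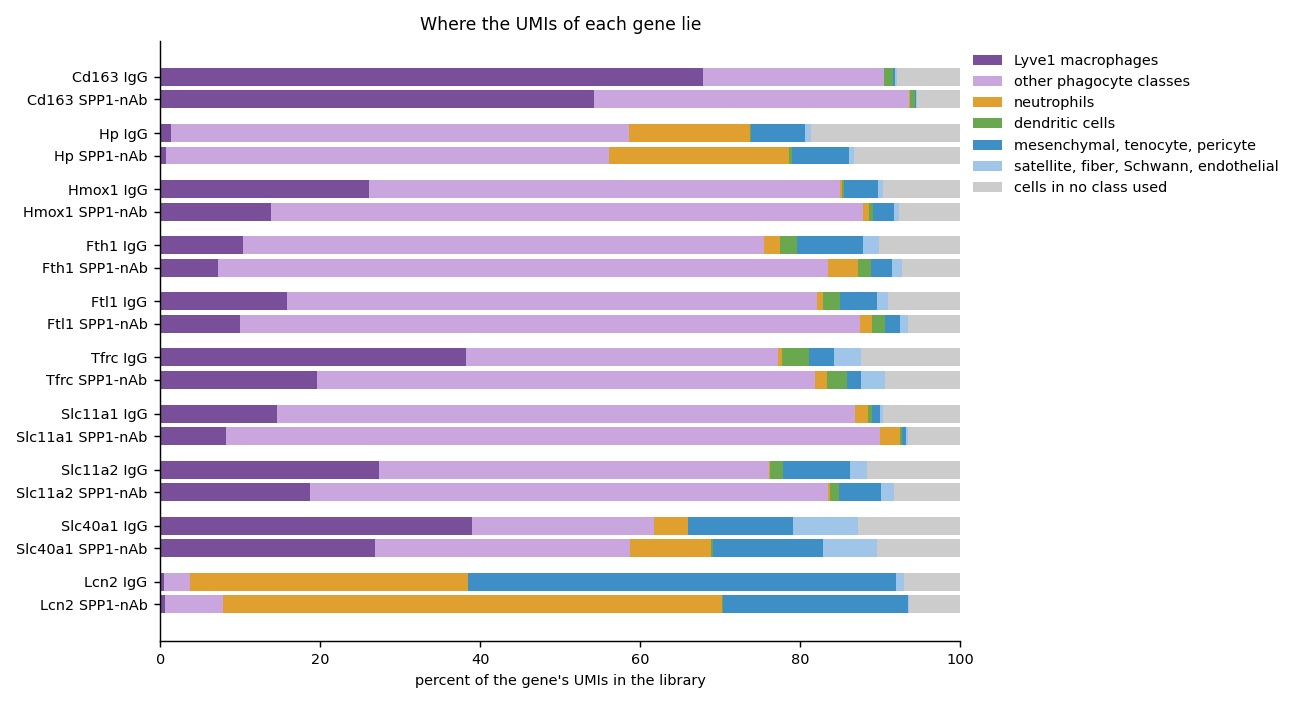
Share of each gene's UMIs that lay in each group of classes, as percent of its UMIs in all kept cells, with 1 stacked bar for IgG and 1 for SPP1-nAb for each of the 10 genes. Mononuclear phagocyte-like cells held 85.0% and 87.9% of *Hmox1* UMIs, while neutrophil-like cells held 34.7% and 62.4% of *Lcn2* UMIs. In the IgG library mesenchymal-like cells held more *Lcn2* UMIs (252 of 688) than neutrophil-like cells (239). In the SPP1-nAb library they held 238 against 1239.

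Counted class by class, the 10 genes gave 101 pairs of gene and class with at least 100 UMIs, of which 25 were past 1.5-fold higher in SPP1-nAb and 5 past 1.5-fold lower. *Hmox1* gave more of the higher ones than any other member and *Cd163* most of the lower ones. No share of all genes was computed over the pooled pairs, so the background is given by class. In Ly6c2 monocyte-like cells 2 of 8 members were higher (background 4.62% of genes past 1.5-fold, of which 2.49% higher). In Lyve1 cells 1 was higher and 1 lower of 8 (8.59%, of which 3.33% higher). In Arg1 Cxcl3 cells 2 of 8 were higher (5.49%, of which 3.12% higher). Gpnmb cells had 3 higher and 1 lower of 9 (5.14%, of which 2.48% higher). Interferon-response cells had 2 higher and 1 lower of 8 (5.86%, of which 3.18% higher). MHC-II-high cells had 1 and 1 of 9 (8.13%, of which 2.64% higher), and the other phagocytes 1 higher of 9 (6.01%, of which 2.12% higher). Among neutrophil-like cells 2 of 7 were higher (11.7%, of which 7.42% higher). Among cDC2-like cells 2 were higher and 1 lower of 5 (7.15%, of which 3.72% higher). In the stromal classes 5 of 8 members were higher in mesenchymal-like cells (11.3%, of which 4.76% higher) and 3 of 5 in tenocyte-like cells (7.64%, of which 3.95% higher), namely *Hmox1* and *Lcn2* in both with *Slc40a1*, *Slc11a2* and *Hp* added in mesenchymal-like cells and *Slc40a1* in tenocyte-like cells. The mesenchymal-like values of *Hp* and *Lcn2* carry the limits given above, as do the *Hmox1* values of tenocyte-like and cDC2-like cells. In satellite cell or myoblast-like cells 1 of 5 was higher (10.3%, of which 5.36% higher), *Hmox1*, which was at or under its free-RNA estimate in both libraries. The cDC1-like, mregDC-like, endothelial-like, pericyte or smooth muscle-like, Schwann-like and muscle fiber-like classes each had 2 members with at least 100 UMIs. None of these was past 1.5-fold, beside 3.73% (Schwann-like) to 10.4% (muscle fiber-like) of genes.

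Other genes of the same pathways, in lists chosen with earlier results of these data known, lay mostly within 1.5-fold in mononuclear phagocyte-like cells. None of the 7 heme uptake and breakdown genes with at least 100 UMIs was past 1.5-fold (median log2 ratio 0.06). They include *Lrp1*, the receptor for hemopexin-bound heme, at 298 and 348 CPM, and *Blvra* and *Blvrb*, the biliverdin reductases that act after heme oxygenase, at 142 and 146 CPM (0.03) and at 180 and 187 CPM (0.06). The reductases thus lay close to the median of all genes. None of 11 heme synthesis genes was past it (median −0.04), among them *Alas1*, the rate-limiting enzyme, at 85.9 and 108 CPM, *Fech*, which inserts the iron, at 14.3 and 13.1 CPM, and the mitochondrial iron importer *Slc25a37* at 21.3 and 17.7 CPM.

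None of 9 regulators was past 1.5-fold (median 0.15). *Nfe2l2* was 789 and 998 CPM, its rival *Bach1* 314 and 393 CPM and the hypoxia factor gene *Hif1a* 354 and 447 CPM. Of 9 partners of uptake, reduction and export, *Cp*, the ferroxidase ceruloplasmin that works with ferroportin, was lower in SPP1-nAb (38.1 and 19.3 CPM, −0.98) and *Ltf*, the neutrophil granule protein lactoferrin, was higher (0.503 and 0.979 CPM, 28 and 88 UMIs, 0.96). *Cp* was highest in mesenchymal-like cells, 662 and 540 CPM, which were 10.2% of kept IgG and 4.09% of kept SPP1-nAb cells, and *Ltf* was highest in neutrophil-like cells, 127 and 324 CPM. The part of RNA from these cells in both differences was not tested. *Trf* (transferrin) was 270 and 294 CPM, and the iron and zinc importer *Slc39a14* 23.5 and 35.2 CPM (0.58, just under 1.5-fold). None of 7 storage and delivery genes was past it (median 0.05), with the iron chaperones *Pcbp1* at 239 and 272 CPM and *Pcbp2* at 359 and 394 CPM and the iron-sulfur scaffold *Iscu* at 80.7 and 87.9 CPM. The uptake, reduction and export partners varied by class. In Gpnmb cells 2 of 6 were past 1.5-fold higher (2.48% of all genes there), and none of 6 in other phagocytes (2.12%). Arg1 Cxcl3 (3.12% higher, 2.37% lower) and interferon-response cells (3.18%, 2.67%) each had 2 higher and 1 lower of 6. In mesenchymal-like cells 3 of 11 were higher (4.76%). Over all kept cells 1 of 15 was higher (2.78%) and 6 were lower (16.8%).

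The antioxidant targets of NFE2L2 were the list whose median lay farthest from that of all genes. Of 7 with at least 100 UMIs, 5 were past 1.5-fold higher and none lower, with a median log2 ratio of 0.63 beside −0.04 over all genes. These were *Slc7a11*, the cystine importer (96.6 and 184 CPM, 0.93), *Srxn1*, sulfiredoxin (17.5 and 30.3 CPM, 0.79), *Gclm* and *Gclc*, the subunits of the enzyme that starts glutathione synthesis (36.4 and 61.9 CPM, 0.77, and 49.9 and 75.6 CPM, 0.60), and *Txnrd1*, thioredoxin reductase (190 and 295 CPM, 0.63). *Prdx1*, a peroxiredoxin, was 1057 and 1477 CPM (0.48). *Nqo1*, the gene of this list under 100 UMIs, had 29 and 52 UMIs (0.15, interval −0.53 to 0.86). Over all kept cells *Nqo1* was 1.46 and 1.08 CPM. By class, 6 of 7 were past 1.5-fold higher in MHC-II-high cells (2.64% of all genes there), 5 of 7 in Lyve1 (3.33%) and in Ly6c2 cells (2.49%), 2 of 7 in Arg1 Cxcl3 (3.12%), interferon-response (3.18%) and other phagocytes (2.12%), and 1 of 7 in Gpnmb cells (2.48%). Outside these, 4 of 6 were higher in cDC2-like cells (3.72%) and 2 of 6 in neutrophil-like cells (7.42%). In mesenchymal-like cells 2 of 7 were higher (4.76%) and 1 lower, with a median of 0.10. Satellite cell or myoblast-like cells also had 2 of 7 higher (5.36%) and 1 lower, with a median of 0.32. In mregDC-like cells 1 of 4 was higher (6.68%) but 3 lay below 0, and the median of −0.24 was the only class median below 0. No test of this list was made, and it was chosen with earlier results of these data known.

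**Figure D5:**
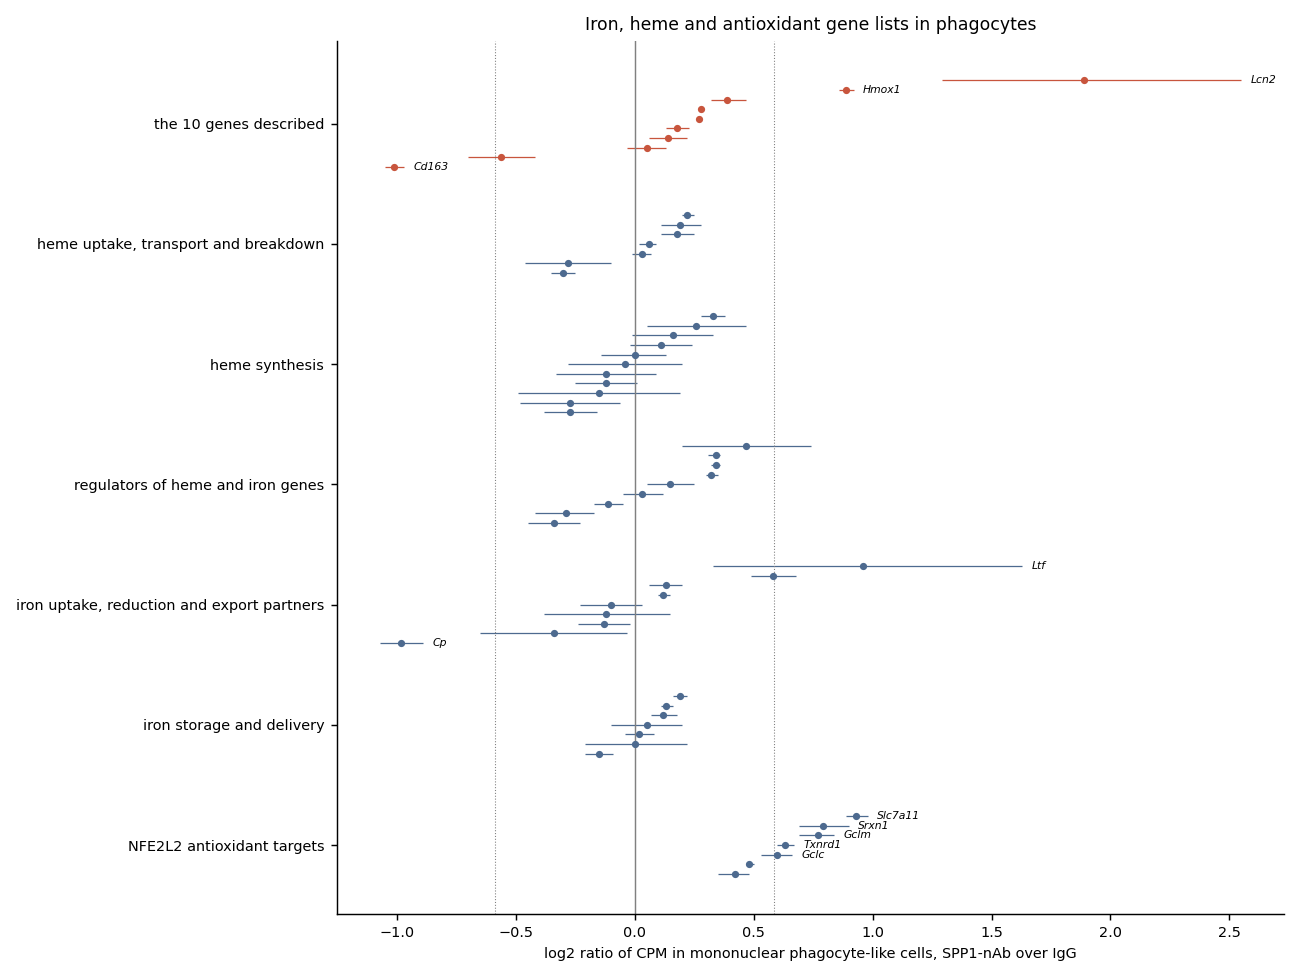
Log2 ratio of CPM, SPP1-nAb over IgG, in mononuclear phagocyte-like cells for the 10 genes (red) and for the genes of 6 related lists (blue) with at least 100 UMIs, with exact 95% intervals and dotted lines at 1.5-fold. Genes past 1.5-fold are named, and 5 of the 7 NFE2L2 antioxidant targets are among them.

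Finally, genes whose level followed each member over 36 profiles (18 classes in 2 libraries) were sought among 12021 genes. The 36 points share 2 libraries and mostly follow cell type, so the correlations are descriptions. For *Hmox1* the closest were *Ctsb* (Pearson's r = 0.900), *Arg1* (0.886) and *Tfec* (0.884). For *Ftl1* they were the vacuolar ATPase subunit genes *Atp6v1b2* (0.960) and *Atp6v0d1* (0.951) and *9130230L23Rik* (0.950), and for *Fth1* they were *Prdx5* (0.905), *Atp6v1e1* (0.885) and *Alas1* (0.872). *Cd163* lay closest to *Fcrls* (0.914), *Mrc1* (0.911, a marker of the Lyve1 class) and *Ptpro* (0.900). *Slc11a2* lay closest to *Mcoln2* (0.912), *Gm15726* (0.894) and *Ccl8* (0.877), and *Slc11a1* to *Tmem251* (0.900), *Gdf15* (0.875) and *C5ar1* (0.873). *Hp* lay closest to *Cd177* (0.864), *F5* (0.863) and *Prdx5* (0.861), and *Lcn2* to *Dhrs7* (0.831), *Chil1* (0.830) and *Nt5e* (0.818). *Tfrc* lay closest to *Map2k3* (0.843), *Dgkd* (0.814) and *Ik* (0.813). The neighbours of *Slc40a1* were the weakest, with *1600010M07Rik* at 0.729, *Arsg* at 0.716 and *Rnf185* at 0.708.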

How the data were processed

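The authors deposited 2 filtered feature-barcode matrices of raw UMI counts, made with Cell Ranger (8.0.0 in the submitters' processing notes, 9.0.1 in the matrix headers) on GRCm39 (their methods also name an older build). The free-RNA and doublet corrections of their methods are not in these counts. The 10 genes, gene lists and classes were chosen with earlier results of these data known. Kept barcodes had over 200 genes, with mitochondrial UMIs under 10% (Python 3.11.15, NumPy 2.4.6, SciPy 1.17.1, pandas 2.3.3). Each barcode was classed by how many markers of a class it held, and the number needed was set after the marker distributions were seen. Of kept cells, 83.3% (IgG) and 86.1% (SPP1-nAb) were classed. Among phagocytes, 860 and 888 lay at the limit of 6 of 12 markers and 765 and 909 barcodes were 1 marker short. Another 5 classes had fewer than 50 cells in a library and were not used. UMIs were summed per class and library and given as CPM with exact Poisson intervals, shares with exact Clopper-Pearson intervals and log2 ratios with exact binomial intervals. Ratios were called at 1.5-fold with at least 100 UMIs. Named genes were the 10 members, the 3 genes of each list with the most UMIs, any list gene past 1.5-fold, and the 3 most correlated genes on log2(CPM + 1) with at least 500 UMIs. Free RNA was taken to have the profile of all kept cells of a library. Its share was estimated from the markers of other lineages in a class. It came to 3.23% to 25.3% of UMIs in IgG and 5.44% to 24.8% in SPP1-nAb classes. Counting and thinning were tested on simulated data. Sequences are from GRCm39 with GENCODE M39.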

Additional observations from a re-analysis of the deposited data

Results flagged for a closer look

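Several genes differed between the libraries in opposite directions in different classes, each with an interval clear of 0. The difference between classes was not tested, since each condition had 1 library. *Cd163* had log2 ratios of SPP1-nAb over IgG of −0.63 in Lyve1 resident macrophage-like, −0.74 in MHC-II-high phagocyte-like and −1.35 in cDC2-like cells, and 0.96 in Arg1 Cxcl3 inflammatory phagocyte-like cells. *Slc40a1* was at −0.72 in Gpnmb lipid-handling phagocyte-like cells, and at 0.84 in mesenchymal-like and 1.04 in tenocyte-like cells. *Hp* was at −0.69 in interferon-response phagocyte-like cells and at 1.74 in mesenchymal-like cells.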

How the results depend on the processing

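The ratios over all kept cells and over phagocytes, and the class ratios past 1.5-fold, were recomputed under 10 other settings. They were also recomputed without the barcodes found in both libraries, a setting chosen after seeing the data. Class ratios under 1.5-fold were not recomputed in this way. Of 541 values of 50 ratios, 475 moved by less than their counting interval, 66 moved by more, and of those past 1.5-fold 0 changed sign. In 9 other cases a setting gave no value. Among these were *Hmox1* and *Lcn2* in neutrophil-like cells with the gate on thinned cells. *Hmox1*, *Tfrc* and *Cd163* in cDC2-like cells with 1 marker more required were also among them. *Slc40a1* over all kept cells went from −0.19 to 0.03 with the mean of per-cell CPM, and *Tfrc* in phagocytes from 0.05 to −0.01 with it and to −0.04 without the 10% of barcodes with the most UMIs. In all kept cells the members past 1.5-fold numbered 3, but 5 with the mean of per-cell CPM and 6 when centred on the median of all genes. In mononuclear phagocyte-like cells they numbered 3 to 4. *Hmox1* ranged from 0.86 to 0.93 there and *Cd163* from −1.06 to −0.97. Some ratios in single classes fell under 1.5-fold in a setting, as given beside their values above for *Cd163*, *Hp*, *Hmox1*, *Tfrc*, *Slc40a1* and *Lcn2*. No replicate could be left out and no value has a replicate error. No paired analysis was possible because each condition had 1 library and no result comes from a test. Depth limits *Lcn2* in phagocytes (26 and 156 UMIs), whose log2 ratio ranged from 1.09 to 1.97, and neutrophil-like cells, of which 29 IgG and 123 SPP1-nAb cells reached 2000 UMIs.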

Other observations

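Cycling phagocytes, with at least 3 of 7 cell cycle markers, differed from the rest in several of these genes. They had less ferritin than other phagocytes in both libraries (*Fth1* at 4180 and 6641 CPM, against 9668 and 11735 CPM), and *Hmox1* stood at 138 CPM in the IgG and at 319 CPM in the SPP1-nAb cells. *Cd163* was 155 CPM (164 UMIs) and 49.3 CPM (88 UMIs) in them, a log2 ratio of −1.65.

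*Hp* had 3 UMIs in IgG and 56 in SPP1-nAb cycling phagocytes, and *Lcn2* had 0 and 50, of which 45 lay in 1 cell. The 8 neutrophil markers summed to 18.9 CPM in the IgG and 885 CPM in the SPP1-nAb cycling phagocytes. Their part in these counts was not tested.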
